A study of Mus musculus with 24 samples.

Results

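The experiment asked how gene expression differs between circadian times CT10 and CT1, late and early in the subjective day, in the retinal pigment epithelium (RPE) of mice with altered Per1 and Per2 genes. The members are all libraries labelled with that genotype at either time, 3 at CT10 and 3 at CT1, 6 of the 24 libraries of the series. The mutant mice carried Per1-/-Per2Brdm1 on a C57BL/6/J x 129 SvEvBrd background, were male and 6 weeks old, and gave the CT10 libraries 2, 3and5 and 4 and the CT1 libraries 1, 4and6 and 5. The 3 CT10 and 3 CT1 libraries of wild type males of the same strain and age are used beside them. Frozen eyes were cut by laser capture to collect the layer, and a library with a joined number (3and5 and 4and6 in mutants, 3and6 in wild type) pooled 2 eyes. Whether all libraries are from separate animals is not stated, so the p-values speak only of the spread from library to library, which may be partly technical. Per1 and Per2 were altered in the whole animal, so the rods next to the layer and the central clock carried the same genotype.

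The circadian clock is a loop of transcription. BMAL1 (gene Arntl) and CLOCK bind E-boxes and switch on the Per and Cry repressors, the REV-ERB receptors (Nr1d1 and Nr1d2) and the PAR bZIP factors Dbp, Tef and Hlf. PER and CRY proteins then shut BMAL1 and CLOCK off, DBP and its relatives act through D-boxes, and REV-ERB and ROR receptors compete at RORE sites, as in Arntl itself. In the RPE, which engulfs the tips that photoreceptors shed, uptake peaks around the start of the day. The Brdm1 allele of Per2 removes part of the PAS domain through which PER proteins pair.

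The promoters of 4 clock genes that differ between the times in wild type RPE are shown because they carry the elements through which the loop runs. Each is the RefSeq window of 250 bases before to 50 bases after the gene's start, with matches in capitals; all coordinates are on build GRCm38.p6. The motifs searched on both strands were the E-box CACGTG, the D-box TTATGTAA and the RORE, read as TAGGTCA preceded by AAN. In all, 7.15% of 32851 mouse promoter windows hold that E-box, 0.94% that D-box and 0.22% that RORE. A match describes these letters only and is not evidence of binding. Ciart (chr3:95882179-95882478, minus strand) has E-boxes at -116, -58 and -44 from the start, Per3 (chr4:151044616-151044915, minus strand) has D-boxes at -205 and -158, Tef (chr15:81802423-81802722, plus strand) has an E-box at -127, and Arntl (chr7:113207261-113207560, plus strand) has a RORE at 28.
Ciart: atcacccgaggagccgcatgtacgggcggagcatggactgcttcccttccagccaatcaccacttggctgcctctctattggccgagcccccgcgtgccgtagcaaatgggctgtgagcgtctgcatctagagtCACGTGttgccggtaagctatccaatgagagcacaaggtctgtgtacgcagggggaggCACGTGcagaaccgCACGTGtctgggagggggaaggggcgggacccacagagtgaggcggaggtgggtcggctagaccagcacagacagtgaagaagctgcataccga
Per3: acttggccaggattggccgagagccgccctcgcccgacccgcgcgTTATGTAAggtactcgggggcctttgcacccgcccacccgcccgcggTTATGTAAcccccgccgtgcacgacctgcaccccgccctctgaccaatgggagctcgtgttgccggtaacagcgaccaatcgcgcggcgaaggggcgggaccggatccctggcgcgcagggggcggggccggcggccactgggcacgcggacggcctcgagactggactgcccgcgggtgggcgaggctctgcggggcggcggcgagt
Tef: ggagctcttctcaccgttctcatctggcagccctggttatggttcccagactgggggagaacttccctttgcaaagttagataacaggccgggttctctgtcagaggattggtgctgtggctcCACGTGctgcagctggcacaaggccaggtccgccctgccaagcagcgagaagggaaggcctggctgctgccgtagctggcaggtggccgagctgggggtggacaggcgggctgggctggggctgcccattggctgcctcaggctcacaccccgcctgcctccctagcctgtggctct
Arntl: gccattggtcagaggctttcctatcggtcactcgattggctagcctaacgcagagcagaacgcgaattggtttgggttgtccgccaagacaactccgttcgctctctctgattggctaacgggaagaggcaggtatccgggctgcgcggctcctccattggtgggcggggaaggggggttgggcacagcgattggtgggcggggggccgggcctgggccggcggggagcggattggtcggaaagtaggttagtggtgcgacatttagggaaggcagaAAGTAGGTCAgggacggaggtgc
A window was found for 12 of the 15 genes on this list of clock outputs, and 5 of them (Bhlhe41, Ciart, Cry1, Per1 and Tef) held the E-box. Of the 8 genes on the Bmal1 limb list, 7 had a window, and Arntl was the only one with the RORE.

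Mutant libraries held 21062492 to 29564156 counts, within the series' range of 16245067 to 32066263, and 20275 genes were tested. The labelled tissue carried its markers: the summed level of 12 RPE markers, such as Ttr and Rpe65, was 51960 to 64530 CPM (counts scaled to library size) in mutant CT10 libraries and 35310 to 53840 CPM in mutant CT1 libraries. The libraries also differed in further ways that run with time. Summed rod markers, 20 in number, were at 39670 to 64160 CPM at CT10 and 30860 to 36770 CPM at CT1 in mutants, against 31990 to 50850 CPM at CT10 and 71710 to 100200 CPM at CT1 in wild type. The slope of each library's log2 level on transcript length, per doubling, was -0.0381, -0.0152 and -0.1006 in mutant CT10 libraries and 0.0597, 0.1079 and 0.1136 in mutant CT1 libraries, so these groups did not overlap. In wild type the slopes were 0.0396, 0.0079 and 0.0679 at CT10 and -0.0245, 0.0006 and -0.0403 at CT1. Slopes on GC content, per percent, were -0.0124, -0.0136 and -0.0042 in mutant CT10 libraries and 0.0079, 0.0026 and 0.0163 in mutant CT1 libraries. Genes detected numbered 23558 to 23895 in mutant CT10 libraries and 19030 to 22719 in mutant CT1 libraries. Neither measure overlapped between the mutant groups. Mutant CT1 library 5 stood apart from the other libraries of its group, at -38.6 on the first principal component against -17.6 and -17.8, and it had the lowest summed RPE markers of the 6. Values without it are given below for many of the genes and lists, but not for every count or median that moved.

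Per1 and Per2, the altered genes, were still counted in mutant RPE at both times. Counts per gene do not show whether the altered stretch was transcribed, so they check neither allele. Per2 had 93.1, 103 and 93.9 CPM in mutant CT10 libraries, against 109.7, 124.7 and 153 CPM in mutant CT1 libraries. In wild type it had 158, 92.3 and 160.3 CPM in wild type CT10 libraries, against 10.2, 14.5 and 21.9 CPM in wild type CT1 libraries. Every mutant library, at either time, thus lay above all wild type CT1 libraries and within the wild type CT10 range. In edgeR's quasi-likelihood test, adjusted over all genes after Benjamini and Hochberg, the mutant log2 change of Per2 was -0.42 ± 0.30 (SE; adjusted p = 0.577), and the wild type change was 3.14 ± 0.33 (adjusted p = 5.05e-05). The difference between these changes, mutant minus wild type, was -3.55 ± 0.45 (adjusted p = 4.85e-04). Per1 had 76.9, 117.7 and 93.0 CPM in mutant CT10 libraries, against 113.6, 127.9 and 252 CPM in mutant CT1 libraries, and 186, 91.1 and 115.1 CPM in wild type CT10 libraries, against 40.9, 45.0 and 34.8 CPM in wild type CT1 libraries. Its mutant change was -0.78 ± 0.32 (adjusted p = 0.287) and the difference from wild type -2.48 ± 0.45 (adjusted p = 0.00632). The mutant values of Per1 rest in part on CT1 library 5, the highest of all. Without it the mutant change was -0.36 and the difference -2.08.

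Of 15 E-box and D-box genes, 0 passed in mutants (0.0% of all genes passed) and 7 rose in wild type, where 1.24% of all genes rose. In the test of the difference the same 7 (Per1, Per2, Per3, Ciart, Dbp, Tef and Nr1d2) passed as lower in mutants, against 4.64% of all genes. Over the list the median log2 change was -0.04 in mutants and 0.76 in wild type, beside 0.05 and -0.05 over all genes. The median in mutants changed sign with the setting and was 0.09 without the pooled libraries. Of the 7 differences, 4 (Per2, Per3, Ciart and Tef) passed with a rod score in the model, 3 (Per2, Per3 and Ciart) with a replicate block and 0 with the length slope. With the slope Per2 had a difference of -2.85 (adjusted p = 0.166), in place of -3.55. Over the 6 fits that left out a wild type library, Per2, Per3, Ciart, Dbp and Tef kept their wild type call in 6, Per1 in 4 and Nr1d2 in 3.

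Ciart, which encodes a repressor of CLOCK and BMAL1 and has the 3 E-boxes shown above, had the largest change in wild type of these lists. It stood at 24.6, 32.3 and 26.4 CPM in mutant CT10 libraries, against 20.3, 38.9 and 56.7 CPM in mutant CT1 libraries. In wild type it stood at 79.9, 36.5 and 49.4 CPM in wild type CT10 libraries, against 2.1, 3.17 and 6.97 CPM in wild type CT1 libraries. The difference was -4.22 ± 0.55 (adjusted p = 5.87e-04), with mutant CT10 values inside the spread of the mutant CT1 values. Reads from C920021L13Rik on the other strand overlap Ciart, and those from Camta1 overlap Per3, so a part of their counts is uncertain. Per3, the third Per gene and not an altered one, had 96.3, 128.8 and 101 CPM in mutant CT10 libraries, against 150.1, 154 and 289 CPM in mutant CT1 libraries. The mutant groups did not overlap and ran opposite to wild type, where Per3 had 175, 163 and 203 CPM in wild type CT10 libraries, against 39.0, 37.4 and 58.5 CPM in wild type CT1 libraries. Its mutant change was -0.86 ± 0.26 with an unadjusted p of 0.00242 and an adjusted p of 0.227, and without CT1 library 5 the change was -0.51. The difference from wild type was -2.87 ± 0.37 (adjusted p = 4.85e-04).

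Among the PAR bZIP factors, Dbp had 397, 367 and 431 CPM in mutant CT10 libraries, against 359, 408 and 370.0 CPM in mutant CT1 libraries, a change of 0.07 ± 0.21. Wild type libraries had 574, 462 and 458 CPM at CT10 and 119.8, 130.7 and 204 CPM at CT1. All 6 mutant libraries therefore lay between the wild type groups. Tef was at 445, 392 and 420.0 CPM in mutants at CT10 and 413, 477 and 480.5 CPM at CT1, against 434, 395 and 456 CPM and 171, 177 and 222 CPM at CT10 and CT1 in wild type. Its mutant values lay close to those of wild type at CT10. The differences of Dbp and Tef between genotypes were -1.64 ± 0.30 and -1.30 ± 0.23 (adjusted p = 0.00589 and 0.00492). Nr1d2, which encodes REV-ERB beta, had 146, 154 and 137 CPM at CT10 and 130.8, 140.0 and 136 CPM at CT1 in mutants, and 138, 123.5 and 142 CPM at CT10 and 80.1, 78.2 and 80.7 CPM at CT1 in wild type. Its difference was -0.65 ± 0.21 (adjusted p = 0.0427), and it was past the threshold in 2 of 12 fits that each left out 1 library.

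The other 8 genes of the list passed in neither genotype. Nr1d1, encoding REV-ERB alpha, had a log2 change of 0.10 ± 0.15 in mutants and 0.14 ± 0.15 in wild type. Cry1, the repressor that partners PER, was at 45.6, 52.3 and 51.9 CPM at CT10 and 50.4, 34.7 and 35.2 CPM at CT1 in mutants (0.32 ± 0.24). Cry2 had a log2 change of -0.15 ± 0.17 in mutants and 0.57 ± 0.17 in wild type (adjusted p of the wild type change 0.0607). The remaining 5 were the repressors Bhlhe40 (0.07 ± 0.18) and Bhlhe41 (-0.11 ± 0.15), the PAR bZIP gene Hlf (0.12 ± 0.20), the deubiquitinase gene Usp2 (0.24 ± 0.23) and the cell cycle kinase gene Wee1 (-0.04 ± 0.37), all mutant log2 changes with SE. A p that misses the threshold does not show equal levels at the 2 times.

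**Figure D1:**
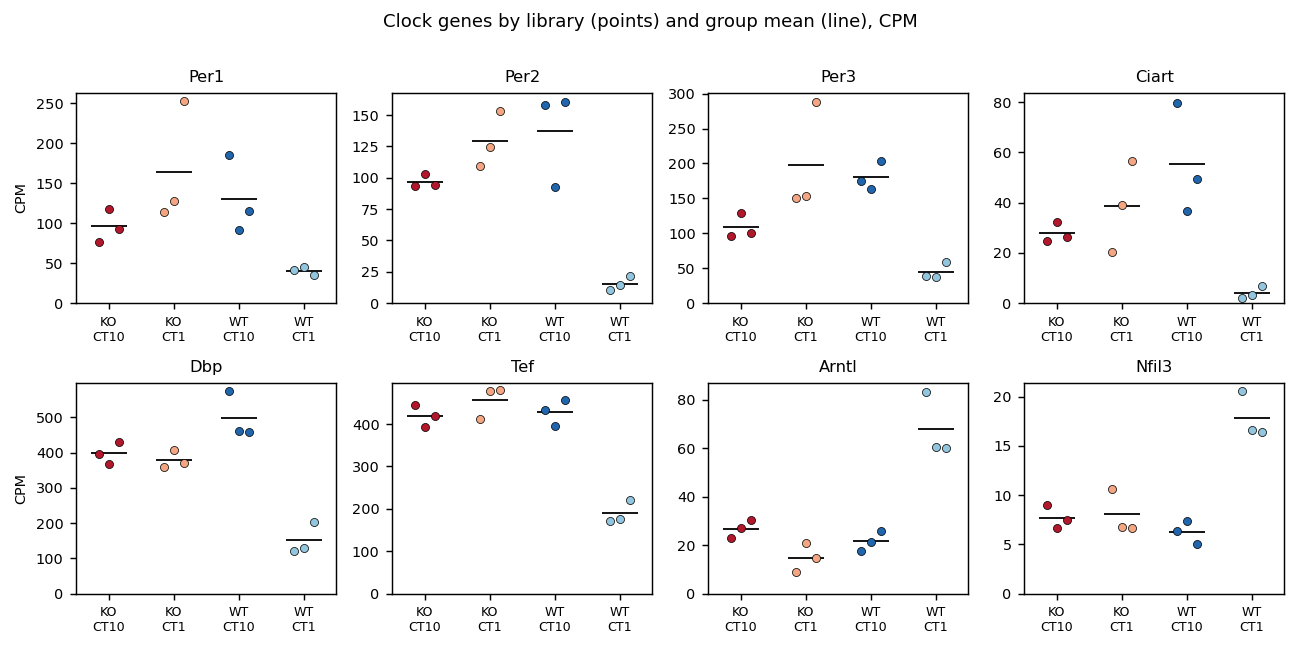
Expression of 8 clock genes in CPM (vertical axes, from 0) in the 3 libraries (points) and as the mean (line) of each group: mutant (KO) CT10 and CT1, wild type (WT) CT10 and CT1. In KO the values of Per2 lie between 93.1 and 153 CPM at both times, while WT values are 92.3 to 160.3 CPM at CT10 and 10.2 to 21.9 CPM at CT1.

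The Bmal1 limb runs in the opposite phase. Of its 8 genes, 0 passed in mutants. In wild type 3 fell (Arntl, Nfil3 and Rorb), beside 2.24% of all genes, and 1 rose, beside 1.24% of all genes. The difference passed as higher in mutants for Arntl, Nfil3 and Rorb, beside 7.01% of all genes, and as lower for 1 gene, beside 4.64%. With the rod score or the length slope in the model, 0 passed in either direction. With the replicate block the adjusted p of this test was 0.0747 for Arntl, 0.0845 for Nfil3 and 0.276 for Rorb. The list median was 0.10 in mutants and -0.73 in wild type, and the mutant median was -0.14 without CT1 library 5. Arntl, which encodes BMAL1 and has the RORE shown above, had 22.8, 27.1 and 30.5 CPM in mutant CT10 libraries, against 8.73, 20.8 and 14.9 CPM in mutant CT1 libraries. The mutant groups did not overlap, and wild type Arntl had 17.8, 21.2 and 25.9 CPM at CT10 and 83.0, 60.6 and 60.0 CPM at CT1. Its mutant change of 0.86 ± 0.32 had an unadjusted p of 0.0121 and an adjusted p of 0.254. The difference was 2.51 ± 0.45 (adjusted p = 0.00589). The wild type calls were kept in 6 of 6 such fits for Nfil3, 4 for Arntl and 1 for Rorb.

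Nfil3, whose product represses at D-boxes, had 8.99, 6.64 and 7.52 CPM at CT10 and 10.7, 6.79 and 6.66 CPM at CT1 in mutants, against 6.35, 7.37 and 5.08 CPM at CT10 and 20.6, 16.6 and 16.4 CPM at CT1 in wild type. Every mutant library was below the wild type CT1 libraries, and the difference was 1.45 ± 0.33 (adjusted p = 0.0107). The ROR receptor gene Rorb had log2 changes of 0.48 ± 0.27 in mutants and -0.96 ± 0.27 in wild type. Rorb is also made in retinal neurons, and the call for its difference was lost when mutant CT10 library 4, mutant CT1 library 5, wild type CT10 library 1 or wild type CT1 library 2 was left out. Clock, Rora, Arntl2 and Npas2 passed in no test, with mutant changes of -0.01 ± 0.16, 0.22 ± 0.20, -0.40 ± 0.56 and 0.36 ± 0.89. Npas2, a stand-in for CLOCK, was low, at 0.267, 0.779 and 0.171 CPM at CT10 and 0.683, 0.270 and 0 CPM at CT1 in mutants.

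The kinases and ubiquitin ligases that set the pace of the loop gave no call in either genotype or in the difference. All 13 tested genes of this list had log2 changes of -0.16 to 0.25 in mutants, with a median of 0.07. Csnk1d, the gene of casein kinase 1 delta, had 169.8, 139 and 154 CPM in mutant CT10 libraries, against 153, 169 and 158 CPM in mutant CT1 libraries. Gsk3b, another clock kinase gene, had a log2 change of 0.19 ± 0.17.

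**Figure D2:**
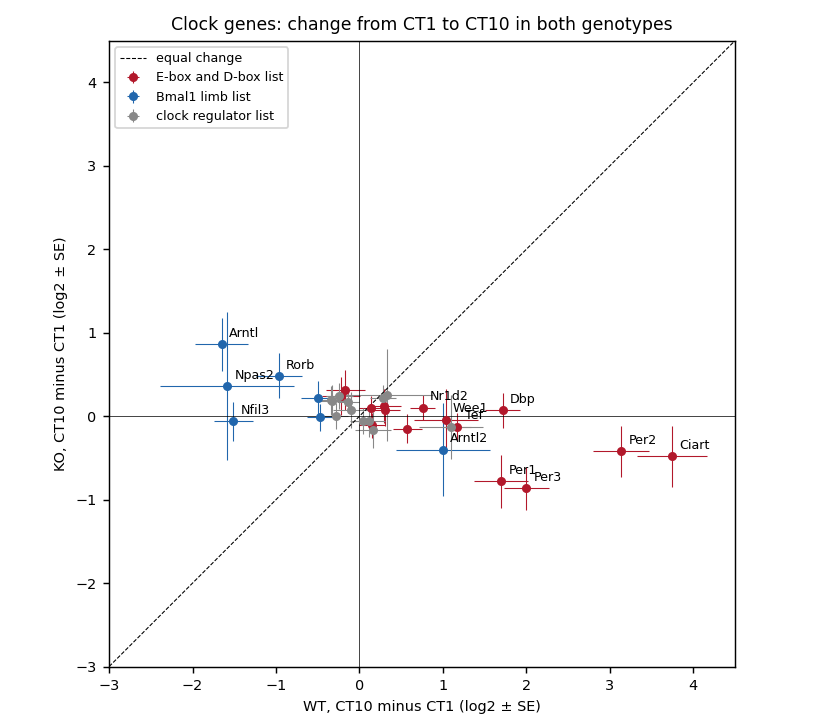
Log2 change from CT1 to CT10 (CT10 minus CT1, points with SE) of clock genes in KO (vertical axis) against that in WT (horizontal axis), with the line of equal change dashed. Ciart, Per2, Per3, Dbp and Per1 lie far right of 0 and between -0.86 and 0.07 in KO, and Arntl lies left of 0 and above 0 in KO.

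Over all genes the comparison of CT10 with CT1 in mutants gave 0 genes past an adjusted p of 0.05 (0.0% of 20275, the quasi-likelihood test of edgeR, Benjamini-Hochberg adjusted), and the lowest adjusted p was 0.227. At an unadjusted p under 0.05 there were 2803 genes, 1695 higher at CT10 (8.36%) and 1108 lower (5.46%). With RLE in place of TMM scaling that split was 1205 higher and 1435 lower, and without CT1 library 5 it was 915 higher and 591 lower. Groups that did not overlap were found for 2910 genes with the 3 CT10 libraries on top (14.4%) and 1795 with the 3 CT1 libraries on top (8.85%). The count of 0 depended on the method: DESeq2 called 74 genes, 15 higher and 59 lower, and edgeR without the filter on low counts called 572. Of those 572 genes, 569 were among the 20275 that the main fit tested. Leaving out CT1 library 4and6 gave 2 calls, Ascc1 and Slc38a2, and leaving out any other mutant library gave 0.

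The 16 genes with the lowest p among those of at least 5 CPM and no overlap, 8 in each direction, are described because nothing passed. All have an adjusted p of 0.227, all 16 were called by DESeq2 with adjusted p of 0.00766 to 0.0463, and none is a clock gene. The DESeq2 calls use the same counts that chose the genes, so they are not an independent check. DESeq2 gave no adjusted p for 8651 of the 20275 genes, so its adjustment covered fewer genes. Ascc1 (chr10:60002805-60099988), a subunit of the activating signal cointegrator complex, had 50.9, 40.5 and 56.1 CPM in mutant CT10 libraries, against 14.6, 30.4 and 20.8 CPM in mutant CT1 libraries, a log2 change of 1.17 ± 0.23. Yaf2 (chr15:93284278-93336935), a partner of Polycomb complexes, had 47.8, 53.5 and 68.9 CPM in mutant CT10 libraries, against 27.0, 29.9 and 27.2 CPM in mutant CT1 libraries (1.02 ± 0.21). The lack of overlap in both genes was a condition of their choice. The wild type changes had the other sign, -0.54 and -0.56. Reads of Ascc1 are uncertain where the gene overlaps Anapc16 on the other strand.

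Uchl3, a hydrolase that trims ubiquitin, had 10.6, 11.7 and 9.40 CPM in mutant CT10 libraries, against 4.46, 5.85 and 3.20 CPM in mutant CT1 libraries (1.24 ± 0.28). Ube2d2a, an E2 ubiquitin-conjugating enzyme, had 49.1, 50.7 and 52.2 CPM at CT10 and 27.6, 31.7 and 28.3 CPM at CT1 (0.80 ± 0.18). The CT10 libraries of Ube2d2a spanned a narrow range. Sdhaf1, an assembly factor of succinate dehydrogenase, had 33.9, 29.0 and 44.3 CPM at CT10 and 18.9, 20.1 and 16.9 CPM at CT1 (0.94 ± 0.22). Clpp, the protease subunit of the mitochondrial matrix, had 55.7, 45.8 and 68.1 CPM at CT10 and 32.4, 35.4 and 32.4 CPM at CT1 (0.76 ± 0.18). CT10 library 4 was the highest for Sdhaf1 and Clpp. Nudt2, which splits diadenosine tetraphosphate, had a log2 change of 0.92 ± 0.20 and the zinc finger gene Zfp622 one of 0.83 ± 0.20.

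Levels were lower at CT10 for the other 8. Pnpla6 (chr8:3515384-3544267), the neuropathy target esterase that degrades phospholipids, had 41.3, 48.0 and 36.6 CPM in mutant CT10 libraries, against 73.8, 60.8 and 78.8 CPM in mutant CT1 libraries (-0.76 ± 0.17). Tm7sf2, a sterol reductase of cholesterol synthesis, had 13.4, 14.4 and 14.1 CPM at CT10 and 33.2, 18.9 and 31.7 CPM at CT1 (-1.0 ± 0.23). The CT1 libraries of Tm7sf2 were uneven, with the pooled library 4and6 nearest to CT10.

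The intramembrane protease gene Sppl2b had 22.3, 26.8 and 22 CPM at CT10 and 33.5, 38.4 and 52.3 CPM at CT1 (-0.81 ± 0.17). Aasdh, an enzyme gene of the acyl-CoA synthetase family, had 10.3, 12.3 and 12.1 CPM at CT10 and 28, 18.4 and 26.4 CPM at CT1 (-1.07 ± 0.25). The zinc finger gene Zfp523 had a log2 change of -0.81 ± 0.19 and the immunoglobulin-domain gene Vsig10l one of -1.24 ± 0.29. CT1 library 5 was highest of the 6 for Sppl2b, Pnpla6, Vsig10l and Zfp523. Over the 6 fits that each left out a mutant library, every one of the 16 genes kept its sign with an unadjusted p of at most 0.00805. The genes were chosen by a low p and no overlap in these same libraries, so those fits are not an independent check. With the length slope of each library as a covariate, added after the data were seen, 14 of the 16 had an unadjusted p under 0.05 and 0 passed the adjustment.

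**Figure D3:**
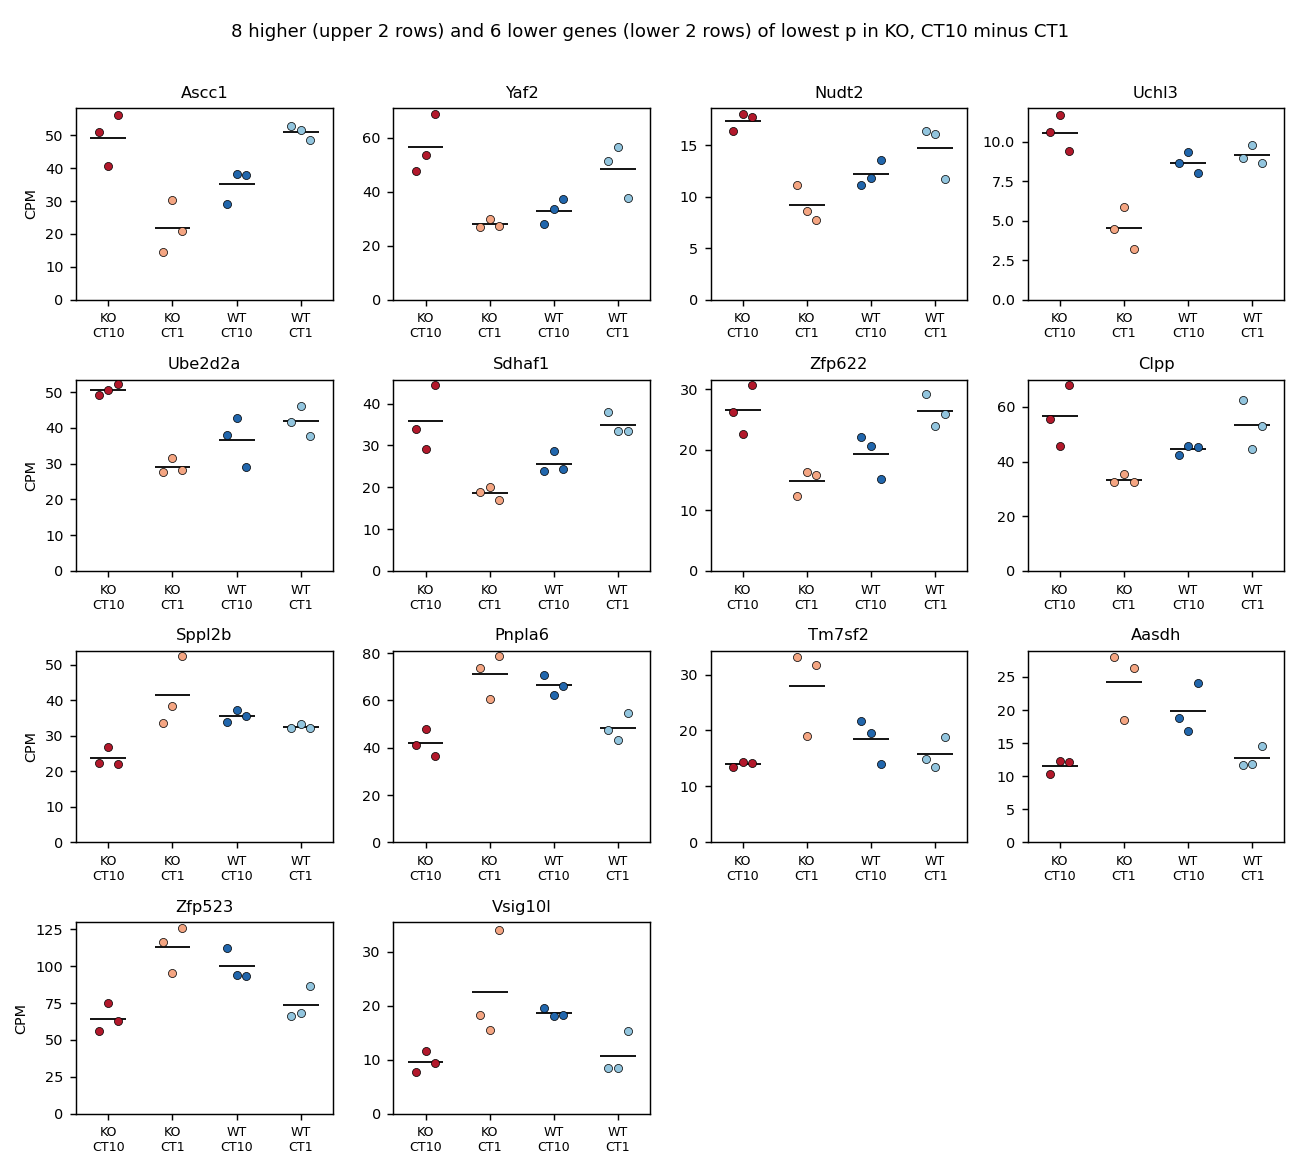
Expression in CPM (vertical axes, from 0) of 14 of the 16 genes of lowest p in the mutant comparison, by library (points) and group mean (line), with KO CT10 and CT1 left of WT CT10 and CT1. The upper 8 are higher and the lower 6 are lower at CT10 in KO, for example Ascc1 at 40.5 to 56.1 CPM at CT10 and 14.6 to 30.4 CPM at CT1.

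The same comparison in wild type called 706 genes, 251 higher and 455 lower, and the test of the difference called 2362, 1421 with a higher and 941 with a lower change in mutants. Under RLE scaling these splits were 295 and 270 in wild type and 870 and 1175 for the difference, with the median difference of all genes at -0.003 in place of 0.13. Of the 2362 genes, 2348 had changes of opposite sign in the 2 genotypes, 621 were called in wild type and 0 in mutants. Choice by a large difference itself favours opposite signs, and 1741 of the genes were called in neither genotype. Of the 706 wild type genes, those that rose had a median mutant change of -0.48 and those that fell one of 0.39. The count of 2362 was 691 without mutant CT10 library 4 and 615 without mutant CT1 library 5. It was 15 with the rod score as a covariate and 0 with the length slope, measures that differ between these groups without overlap in both genotypes.

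Outside the clock lists, 13 genes were among the 16 of lowest adjusted p for the difference, and all 16 were called in each of the 12 fits that left out 1 library. They were chosen by that p in these same libraries. All 13 lost the call with the replicate block and with the length slope, and only Aifm3 of them kept it with the rod score. Aifm3, of the family of apoptosis-inducing factor, had 29.4, 32.8 and 28.9 CPM in mutant CT10 libraries, against 53.2, 54.8 and 59.4 CPM in mutant CT1 libraries. Wild type had 61.6, 51.4 and 69.1 CPM at CT10 and 23.8, 18.8 and 33.1 CPM at CT1, and the difference was -2.14 ± 0.30 (adjusted p = 0.00107). Groups of Aifm3 did not overlap in either genotype and ran in opposite directions. Car11, a carbonic anhydrase-related gene whose end lies just before the start of Dbp on the same strand, had 35.7, 35.5 and 43.1 CPM at CT10 and 55.8, 82.4 and 60.9 CPM at CT1 in mutants, and 124.9, 65.4 and 122.4 CPM at CT10 and 31.2, 27.7 and 42.6 CPM at CT1 in wild type (-2.42 ± 0.38). Daam2, a formin of Wnt signalling, had 77.2, 97.4 and 72.3 CPM at CT10 and 155, 150.4 and 144 CPM at CT1 in mutants, and 179, 145 and 189 CPM at CT10 and 74.5, 64.1 and 92.1 CPM at CT1 in wild type (-2.02 ± 0.33). The mutant CT1 libraries of Daam2 and Aifm3 sat beside those of wild type at CT10. Npepl1 and Lrrc29 completed the lower set, with differences of -1.38 ± 0.22 and -2.37 ± 0.39.

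The higher set of the difference held 8 genes that fell in wild type. Bdh1, the mitochondrial enzyme that interconverts ketone bodies, had 33.8, 36.5 and 43.6 CPM at CT10 and 23.4, 27.3 and 19.7 CPM at CT1 in mutants, and 18.1, 21.9 and 22.2 CPM at CT10 and 41.9, 36.5 and 33.8 CPM at CT1 in wild type (1.55 ± 0.27, adjusted p = 0.00448). Diras2, a Ras-family GTPase gene, had 19.2, 15 and 28.8 CPM at CT10 and 8.59, 10.5 and 9.71 CPM at CT1 in mutants, and 4.95, 4.18 and 7.90 CPM at CT10 and 24.3, 51.7 and 13.2 CPM at CT1 in wild type (3.52 ± 0.58). In both genes the mutant CT1 libraries were low, near wild type CT10. Differences of the other 6 were 1.73 for Sh3bgrl2, 1.80 for Ccdc117, 2.26 for the phosphatase gene Dusp14, 2.33 for Plcxd2, 1.68 for the ubiquitin ligase gene Rnf144b and 1.44 for Clba1. Dusp14 lies within 20 Mb of Per1 on the same chromosome, and the genotype and any linked strain alleles cannot be told apart.

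Of 59 oxidative phosphorylation genes 58 had a positive mutant change, 45 had an unadjusted p under 0.05 and were higher, against 8.36% of all genes, and 0 passed the adjustment. All CT10 libraries were above all CT1 libraries for 37 of them, against 14.4% of all genes. The list median was 0.50 in mutants and -0.25 in wild type, and in the difference 27 passed as higher in mutants and 0 as lower, beside 7.01% and 4.64% of all genes. Those 27 were 10 under RLE scaling and 0 once the rod score entered the model. Atp5b and Atp5a1, subunits of the ATP synthase, had the highest levels of the list. Atp5b had 1208, 925 and 1323 CPM in mutant CT10 libraries, against 989, 916 and 683 CPM in mutant CT1 libraries (0.42 ± 0.25), and Atp5a1 had a log2 change of 0.33 ± 0.21. Neither had groups without overlap. Ribosomal protein genes, whose reads copies elsewhere in the genome can share, had 53 of 55 positive changes and 29 higher at an unadjusted p under 0.05 (8.36% of all genes), with a median of 0.48 in mutants and -0.20 in wild type. The 29 were 13 without the pooled libraries and 17 with the rod score. Rpl8 had 387, 356 and 500.4 CPM in mutant CT10 libraries, against 282, 272 and 232 CPM in mutant CT1 libraries (0.66 ± 0.23), and Rpl4 had a log2 change of 0.66 ± 0.25. For Rpl8 every CT10 library was above every CT1 library.

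These lists hold short transcripts, and the length slope of the libraries ran with time as given above. Across 11558 genes of at least 5 CPM the mutant change had a Spearman correlation with transcript length of -0.319, as a description. With the slope as a covariate the median of the oxidative phosphorylation list was 0.02 with 0 of 59 genes at an unadjusted p under 0.05, and that of the ribosomal list was -0.10 with 0 of 55. Without CT1 library 5 the counts were 24 of 59 and 16 of 55, all higher. The differences that passed as higher without it were 3 of 59 in place of 27 and 0 of 55 in place of 9. In the fit with all libraries 7.01% of all genes passed as higher. Slope and time cannot be told apart in the 6 mutant libraries. The 12 tested mRNAs of the mitochondrial genome all had positive changes, with a median of 0.28 and 0 at an unadjusted p under 0.05, with mt-Cytb and mt-Co1 at 0.27 ± 0.26 and 0.23 ± 0.26.

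Glycolysis had a median of 0.36 over 26 genes in mutants and -0.70 in wild type. In wild type 8 fell and 0 rose, beside 2.24% and 1.24% of all genes. In mutants 6 were higher (Pgam1, Tpi1, Pdk1, Aldoc, Aldoa and Ldha) and 1 lower (Gapdh, whose many copies make it uncertain) at an unadjusted p under 0.05. Over all genes these shares were 8.36% and 5.46%. Without CT1 library 5 there were 2 higher and 1 lower. The difference passed for 11 as higher and 1 as lower, beside 7.01% and 4.64% of all genes. Without mutant CT1 library 5 it passed for 4 and 0. Aldoa, the muscle-type aldolase, had 2609, 2356 and 3364 CPM at CT10 and 2103, 1970 and 1615 CPM at CT1 in mutants (0.55 ± 0.24), and its difference from wild type was 1.29 ± 0.34 (adjusted p = 0.0183), a call kept in 8 of 12 fits that left out 1 library. Slc2a1, the glucose transporter GLUT1, had 1575, 1271 and 1656 CPM at CT10 and 1120, 1348 and 830.0 CPM at CT1 (0.45 ± 0.26). Pgam1, phosphoglycerate mutase, had the lowest p of the list and was picked after its values were seen. It had 54.7, 45.4 and 66.2 CPM at CT10 and 15.1, 28.7 and 27.0 CPM at CT1 (1.23 ± 0.30, unadjusted p = 3.88e-04). Aldoa and Pgam1 did not overlap between the mutant groups, and Slc2a1 did. Once the rod score was in the model, 0 of the differences in this list passed.

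**Figure D4:**
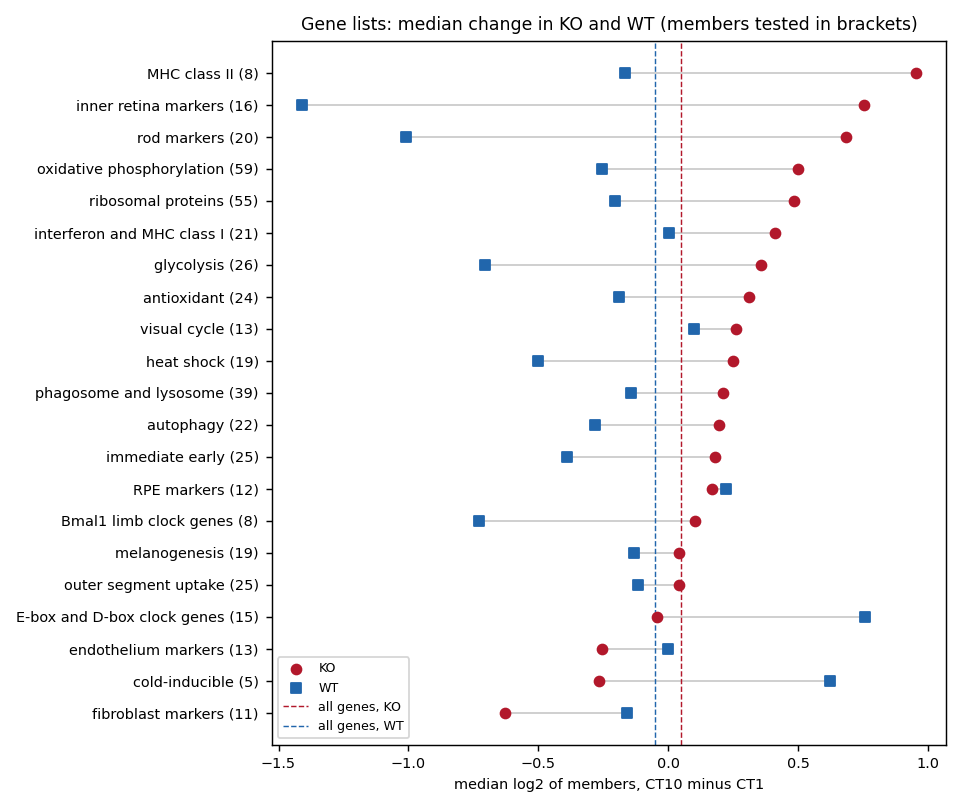
Median log2 change (CT10 minus CT1, horizontal axis) of the tested members of 21 gene lists in KO (circles) and WT (squares), with the medians of all genes dashed. Oxidative phosphorylation lies at 0.50 in KO and -0.25 in WT, and the E-box and D-box clock genes at -0.04 in KO and 0.76 in WT.

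**Figure D5:**
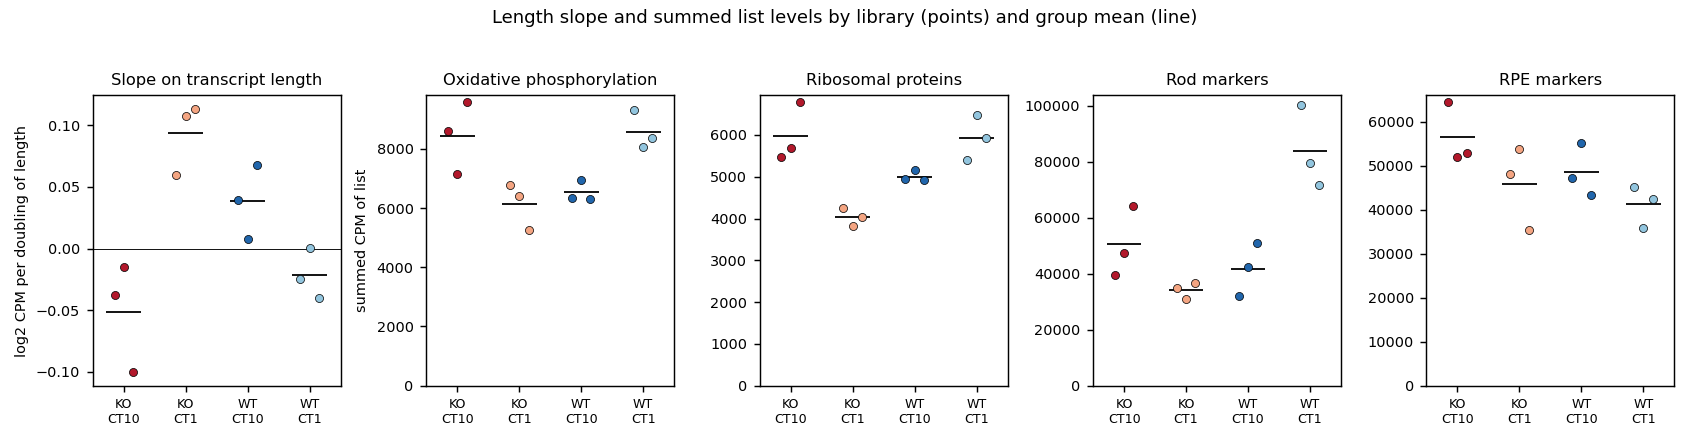
For each library (points) with the group mean (line): the slope of log2 CPM on transcript length, and the summed CPM of 4 lists (axes from 0). Slopes are -0.1006 to -0.0152 in KO CT10 and 0.0597 to 0.1136 in KO CT1, and rod markers sum to 39670 to 64160 CPM and 30860 to 36770 CPM in the same groups.

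For outer segment uptake, 25 genes that include the receptors Mertk and Itgav with Itgb5 and their ligands Gas6, Pros1 and Mfge8, the median was 0.04 and 0 passed in mutants. Without CT1 library 5 the median was -0.065. Mertk, the engulfment receptor, was picked after its values were seen, and had 219, 206 and 176 CPM in mutant CT10 libraries, against 212, 206 and 193 CPM in mutant CT1 libraries (-0.02 ± 0.20). In wild type Mertk rose (0.83 ± 0.20, adjusted p = 0.0289), a call kept in 1 of 6 fits that left out a wild type library, and the difference missed the threshold (-0.85 ± 0.29, adjusted p = 0.0522). Mfge8, which bridges shed tips to the integrin, was also picked after its values were seen. It had 89.1, 75.6 and 87.5 CPM at CT10 and 82.7, 89.5 and 80.0 CPM at CT1 in mutants (0.00 ± 0.19). Mfge8 fell in wild type (-0.80 ± 0.19), a call also kept in 1 of those 6 fits. Its difference passed (0.80 ± 0.26, adjusted p = 0.0464) and was kept in 2 of 12 fits that left out 1 library. The groups of Mertk and Mfge8 overlapped in mutants. Itgav had 865, 543 and 348 CPM at CT10 and 600.4, 608 and 298 CPM at CT1, a spread among replicates wider than the change of 0.22 ± 0.38. Tulp1, also a rod gene, had a log2 change of 0.74 ± 0.37. Myo7a, the myosin that moves phagosomes and pigment, had the only unadjusted p under 0.05 of the list, at 219, 253 and 199 CPM in mutant CT10 libraries, against 306, 375 and 439 CPM in mutant CT1 libraries (-0.74 ± 0.23). Its groups did not overlap, with CT1 library 5 the highest, and the difference of -1.25 ± 0.33 passed in 9 of 12 such fits.

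Phagosome and lysosome genes had a median of 0.21 over 39. At an unadjusted p under 0.05, 6 were higher and 0 lower, beside 8.36% and 5.46% of all genes. Those 6 were the proton pump subunits Atp6v0d1, Atp6v1b2 and Atp6v1h, the small GTPases Rab5a and Rab11a and the ceramidase Asah1. Ctsd, the lysosomal protease of the RPE, had 2668, 2076 and 2505 CPM at CT10 and 2205, 2212 and 1222 CPM at CT1 (0.36 ± 0.28), and Psap, the precursor of saposins, had a log2 change of 0.11 ± 0.33. CT1 library 5 was the lowest for Ctsd and Psap, and without it 2 of the 39 genes had such a p. Autophagy genes had 6 higher and 0 lower of 22, beside 8.36% and 5.46% of all genes, with a median of 0.20. Without CT1 library 5 they had 0 higher and 1 lower. Gabarapl1, a conjugated autophagosome protein, had 247, 222 and 322 CPM in mutant CT10 libraries, against 188, 182 and 177 CPM in mutant CT1 libraries (0.53 ± 0.22), and its difference from wild type passed at 1.51 ± 0.32 (adjusted p = 0.0088). Sqstm1, the cargo receptor p62, had a log2 change of 0.19 ± 0.20.

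The visual cycle, which remakes the chromophore, had 12 of 13 positive changes and a median of 0.26, with 1 gene at an unadjusted p under 0.05 and 0 calls in any of the 3 tests. Over all genes 8.36% were higher and 5.46% lower at such a p in mutants. Rgr, a retinal G protein-coupled receptor, had 17430, 14820 and 10780 CPM at CT10 and 13170, 17340 and 9802 CPM at CT1 (0.09 ± 0.30), and Ttr, which carries retinol with its binding protein, had a log2 change of 0.49 ± 0.29. Melanin genes had a median of 0.04 over 19 with 0 higher and 3 lower (Hps4, Mlph and Hps1, of melanosome formation and transport) at an unadjusted p under 0.05. Dct and Tyrp1, enzymes of melanin synthesis, had log2 changes of 0.27 ± 0.25 and 0.04 ± 0.28. Melanin genes had 1 such gene without CT1 library 5. Ion and water transport had a median of 0.05 over 20, with 1 higher (Car2, a carbonic anhydrase) and 1 lower (Clcn2, a chloride channel) at an unadjusted p under 0.05. Its differences passed for 2 as higher (Aqp1 and Car2) and 2 as lower (Clcn2 and Trpm3), beside 7.01% and 4.64% of all genes. With the rod score 0 passed. Without CT1 library 5 the mutant median of this list was -0.049, with 0 higher and 2 lower. Car14, another carbonic anhydrase, was at 0.03 ± 0.23 and the lactate transporter Slc16a8 at 0.03 ± 0.24. Cholesterol genes had a median of 0.19 over 23 with 0 at an unadjusted p under 0.05, and Apoe, the main lipid carrier of the list, had a log2 change of 0.36 ± 0.28.

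Among the remaining lists, RPE identity genes had a median of 0.22 over 26, with 1 higher (Crx, also a rod gene) and 0 lower at an unadjusted p under 0.05. Over all genes 8.36% were higher and 5.46% lower at such a p, shares to set beside each count here. Timp3, an inhibitor of matrix proteases made by the RPE, had a log2 change of 0.06 ± 0.33. Adhesion and actin genes had a median of 0.23 over 24 with 3 higher (Arpc3, Cfl1 and Arpc2, which turn over actin) and 0 lower, and Actb was at 0.43 ± 0.21. Fatty acid and ketone genes had 7 higher and 0 lower of 29 with a median of 0.16, among them Bdh1, Hadhb and Acat1, beside 8.36% of all genes. Matrix and growth factor genes had a median of -0.11 over 25, with 1 higher (Htra1) and 3 lower (Eln, Mmp14 and Pgf). Complement had a median of 0.14 over 16 with 0 at an unadjusted p under 0.05, and cell cycle genes one of 0.05 over 18 with 1 higher (Ccnd1). Without CT1 library 5 these counts were 0 higher for identity, 2 for adhesion and actin, 3 for fatty acids and ketones, and 0 in either direction for matrix and cell cycle.

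Antigen presentation was uneven among the CT10 libraries. The 8 MHC class II genes had a median of 0.95 and 0 calls. At an unadjusted p under 0.05, 5 were higher (H2-Aa, H2-DMa, H2-Eb1, Cd74 and H2-Ab1) and 0 lower, beside 8.36% and 5.46% of all genes. Cd74, the invariant chain, had 62.7, 187 and 152 CPM in mutant CT10 libraries, against 67.4, 74.9 and 67.3 CPM in mutant CT1 libraries (0.94 ± 0.43), and H2-Aa had 29.5, 76.7 and 60.3 CPM in mutant CT10 libraries, against 26.8, 31.9 and 25.2 CPM in mutant CT1 libraries (0.99 ± 0.36). CT10 libraries 3and5 and 4 were high, and CT10 library 2 lay within or near the CT1 libraries. Without the pooled libraries the median was 0.60 and 0 of 8 had such a p. Summed immune markers, 14 in number, were at 518.3 to 569.3 CPM at CT10 and 572 to 614.5 CPM at CT1 in mutants, and their part in this was not tested. Interferon and MHC class I genes had a median of 0.41, with 9 higher and 0 lower of 21, beside 8.36% of all genes. That count of 9 was 4 without CT1 library 5 and 2 without the pooled libraries, and the 5 class II genes were 3 without library 5. B2m, the light chain of class I, had 417, 534 and 390.0 CPM in mutant CT10 libraries, against 333, 320.0 and 281 CPM in mutant CT1 libraries (0.52 ± 0.23), and H2-K1, a heavy chain, had a log2 change of 0.57 ± 0.23. For B2m the groups did not overlap and library 3and5 was the highest.

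Stress lists gave 0 calls in mutants, and most of their counts at an unadjusted p were smaller without CT1 library 5. Over all genes 8.36% were higher and 5.46% lower at an unadjusted p under 0.05 in mutants, shares to set beside each count here. Heat shock genes had a median of 0.25 in mutants and -0.50 in wild type, where 4 fell, beside 2.24% of all genes. In mutants 4 of 19 were higher (the chaperone genes Hsp90aa1 and Hspd1, Ahsa1 and Cacybp) and 0 lower at an unadjusted p under 0.05. The differences that passed as higher were 8, beside 7.01% of all genes. Without CT1 library 5 they were 2, and the mutant median was 0.11 with 1 higher. Hsp90aa1, the inducible HSP90, had 1012, 1152 and 1139 CPM in mutant CT10 libraries, against 852, 788 and 690.3 CPM in mutant CT1 libraries (0.50 ± 0.20), with a difference of 1.22 ± 0.28 (adjusted p = 0.0109). Its mutant groups did not overlap. Among 5 cold-inducible genes the median was -0.27 in mutants and 0.62 in wild type. Srsf5, a splicing factor that varies with body temperature, had 228, 433 and 280.0 CPM in mutant CT10 libraries, against 525, 538 and 809 CPM in mutant CT1 libraries (-0.99 ± 0.32), and rose in wild type (1.2 ± 0.32, kept in 1 of 6 fits that left out a wild type library), with a difference of -2.19 ± 0.46 (adjusted p = 0.0088). Every CT10 library was below the CT1 libraries in mutants, and CT1 library 5 was the highest. Antioxidant genes had 7 higher and 0 lower of 24, with a median of 0.31, and without library 5 the count was 2 and the median 0.18. Mt1, a metallothionein, had a log2 change of 0.31 ± 0.22. Endoplasmic reticulum stress genes had a median of -0.10 and 0 higher and 2 lower (Trib3 and Syvn1) of 22, with -0.32 and 5 lower in the fit without library 5, and glucocorticoid-induced genes a median of 0.12 with 0 higher and 1 lower (Per1) of 17. Immediate early genes had a median of 0.18 over 25 in mutants, with Atf3 as the only one at an unadjusted p under 0.05, and -0.39 in wild type, where Fos, Jun and Junb fell, Fos in 1 of 6 fits that left out a wild type library. Fos, which was picked after its values were seen, had 8.90, 7.46 and 5.72 CPM in mutant CT10 libraries, against 5.82, 4.14 and 7.89 CPM in mutant CT1 libraries (0.30 ± 0.41). Its mutant groups overlapped, and the difference from wild type was 2.15 ± 0.60 (adjusted p = 0.0235), kept in 9 of 12 fits that left out 1 library. Atf3, a stress-induced transcription factor, had 4.58, 4.40 and 9.14 CPM at CT10 and 2.30, 1.30 and 2.24 CPM at CT1 in mutants (1.63 ± 0.52), and a difference of 3.11 ± 0.73 (adjusted p = 0.0119).

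Medians of rod and inner retina markers had opposite signs in the genotypes, while those of 11 cone markers were -0.09 in mutants and -1.15 in wild type. In mutants 18 of 20 rod markers had positive changes, with a median of 0.69 and 0 calls. At an unadjusted p under 0.05, 2 (Pdc and Nrl) were higher, a count near the share of 8.36% over all genes. Gnat1, rod transducin, had 11070, 15110 and 20300 CPM in mutant CT10 libraries, against 10400, 8596 and 9875 CPM in mutant CT1 libraries (0.69 ± 0.40). Gnat1 did not overlap between the times. In wild type the median was -1.01. Inner retina markers had a median of 0.75 over 16 in mutants and -1.41 in wild type. In mutants 4 were higher (Calb2, Gad1, Snap25 and Aqp4) and 0 lower at an unadjusted p under 0.05, beside 8.36% and 5.46% of all genes. Of the 16 differences 9 passed as higher, beside 7.01% of all genes, and 0 with the rod score in the model. Glul, the glutamine synthetase of Mueller glia, had a log2 change of 0.38 ± 0.24. In bulk RNA, fewer cells of a type and less RNA per cell cannot be told apart. The part of rod RNA in the metabolic lists was not tested beyond the covariate: with the rod score in the model the oxidative phosphorylation median was 0.41 and the glycolysis median 0.17.

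Markers of the choroid and sclera had negative medians. Those were -0.26 for 13 endothelial genes, -0.25 for 10 mural genes and -0.63 for 11 fibroblast genes. Lower at an unadjusted p under 0.05 were 3 of the fibroblast genes (the collagens Col1a1, Col1a2 and Col3a1) and 1 endothelial gene (Egfl7), beside 5.46% of all genes, and 0 passed. Without CT1 library 5 both counts were 0, and the fibroblast median was -0.43. The summed endothelial level was 714.6 to 1212 CPM at CT10 and 1118 to 1437 CPM at CT1, and that of fibroblast markers 552.3 to 812.3 CPM at CT10 and 739.1 to 871.8 CPM at CT1. These ranges overlapped. Dpt, a fibroblast marker, was under 0.1 CPM in every CT10 library of mutants and of wild type. Muscle markers, 12 genes, had a median of -2.59, with summed levels of 5.6 to 8.27 CPM at CT10 and 50.6, 47.0 and 3.94 CPM in CT1 libraries 1, 4and6 and 5. Myh4 was the one muscle gene at an unadjusted p under 0.05, and Myh1 was under 0.1 CPM in every mutant CT10 library. Melanocyte, immune, blood and cone lists had 0 genes at an unadjusted p under 0.05 in mutants, with medians of -0.33, 0.10 and -0.47 for the first 3 and, for immune markers, 0.56 without CT1 library 5.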

How the data were processed

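RNA was measured by sequencing in laser-captured RPE, and all 24 libraries of the series entered one model. The authors deposited raw read counts per gene, whole numbers without normalization, for 54232 Ensembl identifiers, of which 54165 were matched to a symbol. The submitters' processing notes name HTSeq 0.11, HISAT2 2.1.0, Trimmomatic 0.32, Cufflinks and the build GRCm38.p6, with no roles or order given. The strand setting of the counting is not given in the sources used here, so genes that overlap another gene are uncertain. 0 columns were left without a sample.

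Counts were fitted with edgeR 4.0.16 in R 4.3.3 (filterByExpr with a minimum count of 10, TMM scaling, robust quasi-likelihood with 8 group means and 16 residual degrees of freedom). Contrasts were CT10 minus CT1 in mutants, the same in wild type, and the first minus the second. The threshold was an adjusted p (Benjamini-Hochberg, 20275 genes) under 0.05. Errors are SE of a log2 change, and CPM values use TMM factors. The fit was tested on simulated data with known changes. The gene lists (39, of which 11 hold cell type markers), the named-gene rule and the comparison were chosen with earlier results of these data known, and described by counts and medians. The rule named every clock gene, and the 8 genes a direction of lowest p with at least 5 CPM and no overlap in mutants. It also named 8 a direction for the difference and, from a list with no call, its 2 most abundant members. A gene given library values or a log2 change outside the rule is said to be so or stands in a count from its list. Alternatives were RLE scaling, DESeq2 1.42.0, other filters, a replicate block, rod and choroid scores as covariates, fewer libraries and, added after the data were seen, slopes of each library on transcript length and GC content. A few genes that the rule named are not reported here. Promoter windows are from RefSeq on GRCm38.p6. No pair of libraries in a mutant group was a repeat: the chi-square of their counts was at least 30.7 for each degree of freedom. Intervals of counting error were not used, since p-values come from the spread between libraries.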

Additional observations from a re-analysis of the deposited data

Results flagged for a closer look

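The change from CT1 to CT10 differed between mutant and wild type RPE, by the interaction test in edgeR with Benjamini-Hochberg adjustment, for 2362 genes. Among the genes named in the text, the difference in log2 change (mutant minus wild type) passed for the clock genes Per1 (-2.48), Per2 (-3.55), Per3 (-2.87), Ciart (-4.22), Dbp (-1.64), Tef (-1.30), Nr1d2 (-0.65), Arntl (2.51), Nfil3 (1.45) and Rorb (1.45).

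It also passed for 15 of the 16 genes named for a low p in mutants, whose choice used the mutant side of this difference. Positive differences were 1.71 for Ascc1, 1.57 for Yaf2, 1.2 for Nudt2, 1.31 for Uchl3, 0.99 for Ube2d2a, 1.39 for Sdhaf1, 1.28 for Zfp622 and 1.03 for Clpp. Negative ones were -0.93 for Sppl2b, -1.22 for Pnpla6, -1.23 for Tm7sf2, -1.72 for Aasdh, -1.25 for Zfp523 and -2.03 for Vsig10l. Over the 12 fits that each left out 1 library, Uchl3 passed in 4, Tm7sf2 in 7, Ube2d2a and Clpp in 9, Sppl2b in 10 and Nudt2 in 11.

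Of the genes named for the difference itself, Sh3bgrl2 (1.73), Ccdc117 (1.80), Dusp14 (2.26), Plcxd2 (2.33), Rnf144b (1.68), Diras2 (3.52), Clba1 (1.44) and Bdh1 (1.55) were higher, and Aifm3 (-2.14), Car11 (-2.42), Npepl1 (-1.38), Daam2 (-2.02) and Lrrc29 (-2.37) lower.

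Among genes named from the lists, the difference passed for Atp5b (1.17), Rpl4 (1.11), Rpl8 (1.12), Aldoa (1.29), Pgam1 (2.38), Gabarapl1 (1.51), Hsp90aa1 (1.22), Atf3 (3.11), Fos (2.15), Tulp1 (1.71) and Mfge8 (0.80) as higher in mutants, and for Srsf5 (-2.19) and Myo7a (-1.25) as lower. Of these, Rpl4 and Mfge8 passed in 2, Tulp1 in 3, Atp5b in 5, Rpl8 in 7 and Aldoa in 8 of the 12 fits that each left out 1 library. Fos and Myo7a passed in 9. Pgam1, Atf3, Fos, Mfge8 and Myo7a were picked after their values were seen.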

How the results depend on the processing

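The number of genes called between CT10 and CT1 in mutants was 0 in edgeR under RLE scaling, a mean of at least 5 CPM, the replicate block, either marker score, without pools, with the 6 or the 12 mutant libraries alone and with the length slope. It was 74 with DESeq2 and 572 without the filter on low counts, and 0 to 2 when 1 library was left out. In wild type the 706 calls became 1670 with DESeq2, 1797 without the filter, 1718 with the choroid score, 1618 with the 6 libraries alone, 45 with the rod score, 25 without pools, 94 with the length slope, 55 with length and GC slopes, and 42 to 932 when 1 library was left out. The 2362 calls of the difference became 1343 without pools, 15 with the rod score, 0 with the length slope, 1 with length and GC slopes, and 615 to 2534 when 1 library was left out. With the replicate block the counts were 0 in mutants, 9 in wild type and 5 for the difference (Per2, Per3 and Ciart among them). That block kept pooled libraries apart. Numbers 4 and 5 each occur in both mutant groups, once in a pool, and a block that joined 4 with 4and6 and 3and5 with 5, added after the data were seen, gave 0 calls in mutants and 1077 for the difference. Deviations from the group mean correlated with r of -0.076 and 0.376 in those 2 pairs and -0.164 to 0.268 in others with a shared number, so these data do not show that the numbers pair the libraries. No named gene that was called changed sign under any alternative run, but this covers no mutant change, since 0 were called in mutants. With the replicate block the mutant change of Ciart went from -0.48 to 0.70 and that of Per2 from -0.42 to 0.17. The causes of these shifts were not tested. Total counts were 21062492 to 24635163 in mutant CT10 libraries and 21732799 to 29564156 in mutant CT1 libraries. Each group held 3 libraries, which limits what the tests can detect.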
